A study of Mus musculus with 12 samples.

Results

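The m6A writer complex and reader genes described here are Mettl3, Mettl14, Wtap, Zc3h13, Cbll1, Rbm15, Rbm15b, Ythdc1 and Ythdf2. They were chosen by name, as the entries with these symbols in the count files, and all 9 were found among the 22556 genes counted. Every one of the 9 passed the count filters of the 10 comparisons given here, so no gene dropped out of any count.

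m6A is a methyl group that a nuclear protein complex adds to adenosines of messenger and long non-coding RNA. METTL3 is the catalytic subunit and METTL14 its RNA-binding partner, WTAP, ZC3H13, CBLL1, RBM15 and RBM15B hold the complex together and bring it to its RNA targets, and proteins with a YTH domain such as YTHDC1 and YTHDF2 bind the modified base. In mouse embryonic stem cells (mESCs) the mark lies on transcripts of pluripotency genes and on Xist, the RNA that silences an X chromosome in female cells, where it is dense just downstream of a repeat block called the A-repeat.

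The study sequenced chromatin-associated RNA, which is largely nascent transcript, from the female mESC line iXist-ChrX, a hybrid of the 129S and Castaneus genomes. In these cells a TetOn promoter drives Xist from the 129S X chromosome when doxycycline (Dox) is added, and untreated cells were compared with cells given Dox for 24 h. The WT group carries the inducible Xist with no deletion and has 1 library in each state, so it is given as values and enters no test between groups. XistDelA lacks the A-repeat and has 3 clones, C1, 2C2 and C11, with 1 library each in each state. XistDelm6A (T1_11C) lacks the m6A region next to the A-repeat and is a single line, with 2 replicates in each state. Its difference from XistDelA therefore cannot be told apart from differences between clones, and the labels do not say whether its replicates came from separate cultures. The methods call the replicates of the chromatin RNA experiments biological without describing them, so p-values measure the spread between these samples, part of which may be technical. All cells were grown on mitomycin-inactivated mouse fibroblasts with LIF and serum, and the methods describe a pre-plating step that removes these feeders before RNA is taken. The deletion of C11 is named differently in its data than that of C1 and 2C2.

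Depth ranged from 18893447 to 36007145 gene counts per library, and in each of them between 44.6% and 47.1% of the counts were assigned to a parental genome. The authors counted read pairs over whole gene spans, introns included and by strand. Levels are given below as counts scaled to library size by trimmed means (TMM), in the unit CPM, and levels between genes only as CPM per kilobase of the length in the files (RPKM). Reads made by PCR carry no molecular identifiers, so the intervals given here cover counting error only.

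The 4 XistDelm6A libraries stood apart from the other 8 over all genes. The root mean square of the log2 differences between an XistDelm6A library and one of the other 8 was between 0.64 and 0.946, with a median of 0.826, whereas among the other 8 it was between 0.365 and 0.571. Within XistDelm6A it was between 0.393 and 0.757, so the 2 replicates of this line also lay farther apart than any pair among the other 8 libraries, with 0.609 between them without Dox and 0.757 with Dox. Rmrp, a short non-coding RNA that was chosen after its values were seen, was between 3698 and 8037 CPM in the 4 XistDelm6A libraries and between 503 and 968 CPM in the other 8. The line and the set of libraries cannot be told apart in any difference between XistDelm6A and XistDelA.

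Xist, the transcript that Dox is meant to switch on, was checked in each library. WT went from 302.5 to 5472 CPM with Dox. Clones C1, 2C2 and C11 of XistDelA went from 127, 133 and 164 CPM to 1559, 1285 and 1646 CPM. XistDelm6A went from 91.3 to 2795 CPM in replicate 1 and from 84.1 to 4814 CPM in replicate 2, so each Dox library was far above its partner and every label matched the state of Xist.

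The label of embryonic stem cells was checked against 7 marker genes, of which Pou5f1, Nanog, Zfp42, Esrrb, Klf4 and Dppa5a were detected in all 12 libraries, while Sox2 had a count of 0 in all 12. Their summed level was between 1490 and 1772 CPM in the 6 XistDelA libraries, 1528 and 1654 CPM in WT without and with Dox, 1328 and 1700 CPM in XistDelm6A replicate 1 and 1115 and 1132 CPM in replicate 2. The most abundant of them per length was Dppa5a or Zfp42, between 43.4 and 106 RPKM. The 8 fibroblast markers, taken as a measure of feeder cells left after pre-plating, summed to between 18.7 and 32.9 CPM in XistDelA, 18.0 and 19.9 CPM in XistDelm6A replicate 1 and 11.3 and 9.43 CPM in replicate 2, with Thy1 or Fbln2 the most abundant per length at 0.619 RPKM or less and Lum at 0 in 10 of 12 libraries. The 8 differentiation markers, led per length by Eomes in every library, summed to between 15.0 and 21.1 CPM in XistDelA and between 30.3 and 35.2 CPM in XistDelm6A, with Sox1 at 0 in all 12. The reads behind the counts of 0 for Sox2 and Sox1 were not examined, so these counts do not show that the transcripts were absent. In bulk samples such as these, fewer cells of a type and less RNA per cell cannot be told apart, and the part of these marker differences in the values of the 9 genes was not tested.

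**Figure D1:**
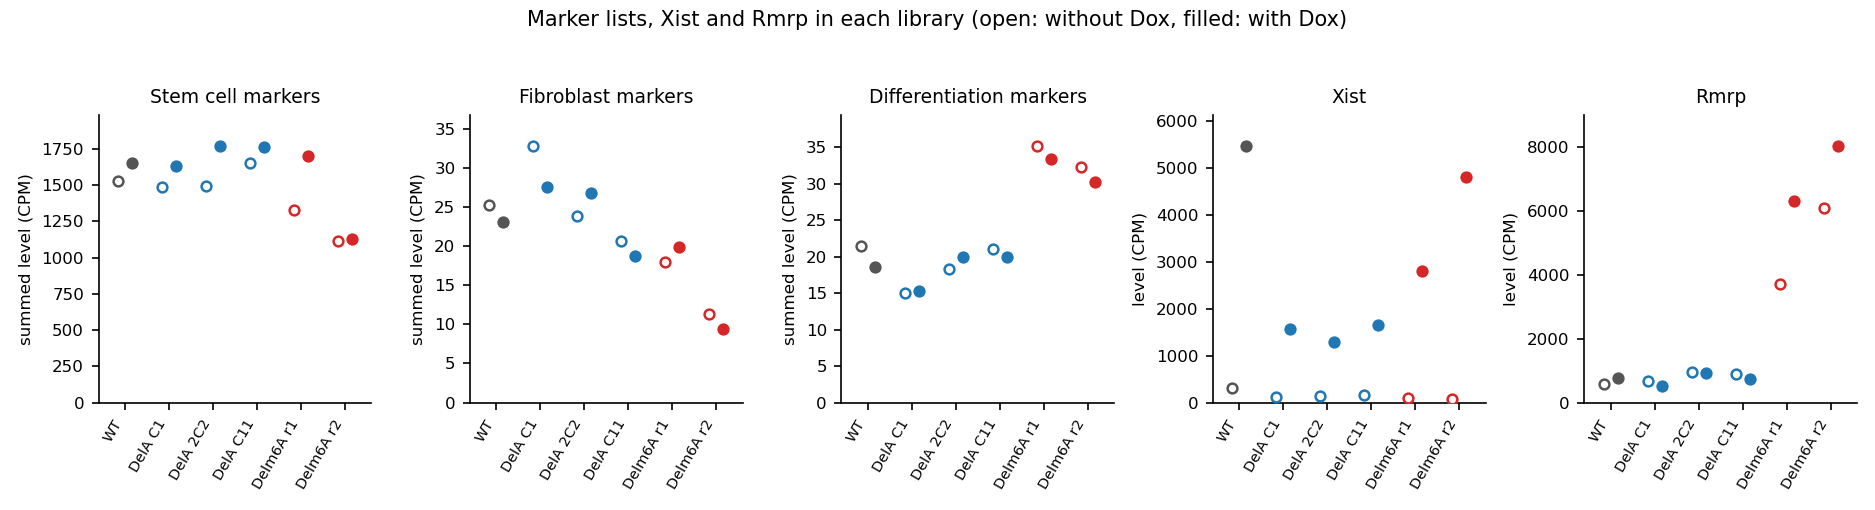
Summed CPM of the 7 stem cell, 8 fibroblast and 8 differentiation markers and CPM of Xist and Rmrp in each of the 12 libraries (1 point per library, r1 and r2 are replicates 1 and 2). Rmrp is between 3698 and 8037 CPM in XistDelm6A and at most 968 CPM elsewhere, and the differentiation markers sum to at least 30.3 CPM in XistDelm6A and at most 21.4 CPM elsewhere.

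The 9 genes lie on 7 chromosomes of GRCm38 and none on a sex chromosome, so none lies on the chromosome that Xist covers. In GENCODE M21, Mettl3 (chr14:52294841-52305128, minus strand) and Zc3h13 (chr14:75284373-75344426, plus strand) share chromosome 14. Mettl14 (chr3:123368297-123386108, minus strand) and Rbm15 (chr3:107325421-107333673, minus strand) share chromosome 3. Wtap lies at chr17:12966796-12994169 on the minus strand, Cbll1 at chr12:31484829-31499616 on the minus strand and Rbm15b at chr9:106880918-106887428 on the minus strand. The readers Ythdc1 (chr5:86804221-86836659, plus strand) and Ythdf2 (chr4:132184912-132212303, minus strand) lie apart from each other. Exons cover 100% of the span of Rbm15b and 89.9% of Rbm15 but only 10.5% of Zc3h13, 16.7% of Ythdf2, 22.8% of Wtap and 27.1% of Cbll1, so most of the countable span of the last 4 is intron. Only Mettl3 and Zc3h13 overlap another gene in the files, Tox4 and Mir466f-3, both on the opposite strand.

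Promoter sequence from RefSeq (GRCm38.p6) was available for 8 of the 9 genes, without Mettl14. The windows of Cbll1 and Ythdf2 are shown because these 2 genes moved together between the lines, and that of Ythdc1 because it had the lowest adjusted p after Dox with clone as a block. Each window has 200 bases and ends 50 bases before the RefSeq start, at chr12:31499667-31499866 (minus strand), chr4:132212307-132212506 (minus strand) and chr5:86804016-86804215 (plus strand), and capitals mark matches to the motifs searched.
Cbll1: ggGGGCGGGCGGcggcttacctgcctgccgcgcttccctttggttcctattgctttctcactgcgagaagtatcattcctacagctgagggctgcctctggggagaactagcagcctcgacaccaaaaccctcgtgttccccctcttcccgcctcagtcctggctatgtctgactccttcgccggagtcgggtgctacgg
Ythdf2: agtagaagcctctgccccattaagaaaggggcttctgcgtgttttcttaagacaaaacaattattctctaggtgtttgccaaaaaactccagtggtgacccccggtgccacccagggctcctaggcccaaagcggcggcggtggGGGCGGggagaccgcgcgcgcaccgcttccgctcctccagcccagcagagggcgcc
Ythdc1: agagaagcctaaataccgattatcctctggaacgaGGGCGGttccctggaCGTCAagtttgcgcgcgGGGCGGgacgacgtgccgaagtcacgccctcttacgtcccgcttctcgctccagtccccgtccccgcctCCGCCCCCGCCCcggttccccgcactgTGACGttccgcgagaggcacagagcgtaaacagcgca
Of 7 motifs searched on both strands, GGGCGG (a GC box) was in the windows of 6 of the 8 genes and in 24.6% of all 32851 promoters in the table. It occurred in Cbll1, Ythdf2, Ythdc1, Wtap, Rbm15b and Zc3h13, with 4 matches in Ythdc1, and neighbouring matches overlap in Cbll1. The windows of these 6 genes hold between 57.0% and 78.5% G and C, against a median of 51.5% over all windows, and the share of promoters with the motif was not adjusted for this. Wtap has 3 entries in the table and Zc3h13 has 2, and each of these windows holds the motif. TGACG was in Mettl3, Ythdc1 and Zc3h13, against 12.7% of all promoters. CCAAT was in 2 of the 8 (28.4% of all) and CACGTG in 1 (4.34% of all), while CCGGAAG (3.98% of all), CGCATGCGC (0.855%) and TATAAA (9.14%) were in 0 of the 8. The windows of Rbm15, Rbm15b and Wtap overlap exons of their own genes and are not printed.

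Per length of the counted span, Rbm15 had the highest level of the 9 genes, with 16.0 ± 2.52 RPKM (SD over the 12 libraries). It was followed by Ythdc1 with 10.4 ± 2.76 RPKM, Wtap with 7.22 ± 1.82 RPKM and Rbm15b with 5.48 ± 1.22 RPKM. The others were Ythdf2 with 2.82 ± 0.570 RPKM, Zc3h13 with 2.55 ± 0.437 RPKM, Mettl3 with 2.50 ± 0.196 RPKM, Cbll1 with 1.78 ± 0.405 RPKM and Mettl14 with 1.72 ± 0.145 RPKM. Neighbours that did not differ beyond their SD were Wtap and Rbm15b, Ythdf2 and Zc3h13, Zc3h13 and Mettl3, and Cbll1 and Mettl14. The order is that of the means and was not the same in each library. In XistDelm6A replicate 1, Wtap (5.65 and 5.43 RPKM without and with Dox) was above Ythdc1 (5.62 and 4.86 RPKM). In replicate 2, Rbm15b (7.83 and 7.61 RPKM) was above Wtap (4.25 and 4.71 RPKM). The level of Rbm15b per length depends on the length used, since the files give it 3017 bases and its annotated span is 6511 bases. The order was also not adjusted for the exonic part of the annotated span. This part is 89.9% for Rbm15 and 100% for Rbm15b but 10.5% for Zc3h13 and 16.7% for Ythdf2, so the order need not be that of transcript abundance. All 9 were among the better detected genes, with between 78.7% (Mettl14) and 98.6% (Rbm15) of the 20367 detected genes below them in RPKM.

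**Figure D2:**
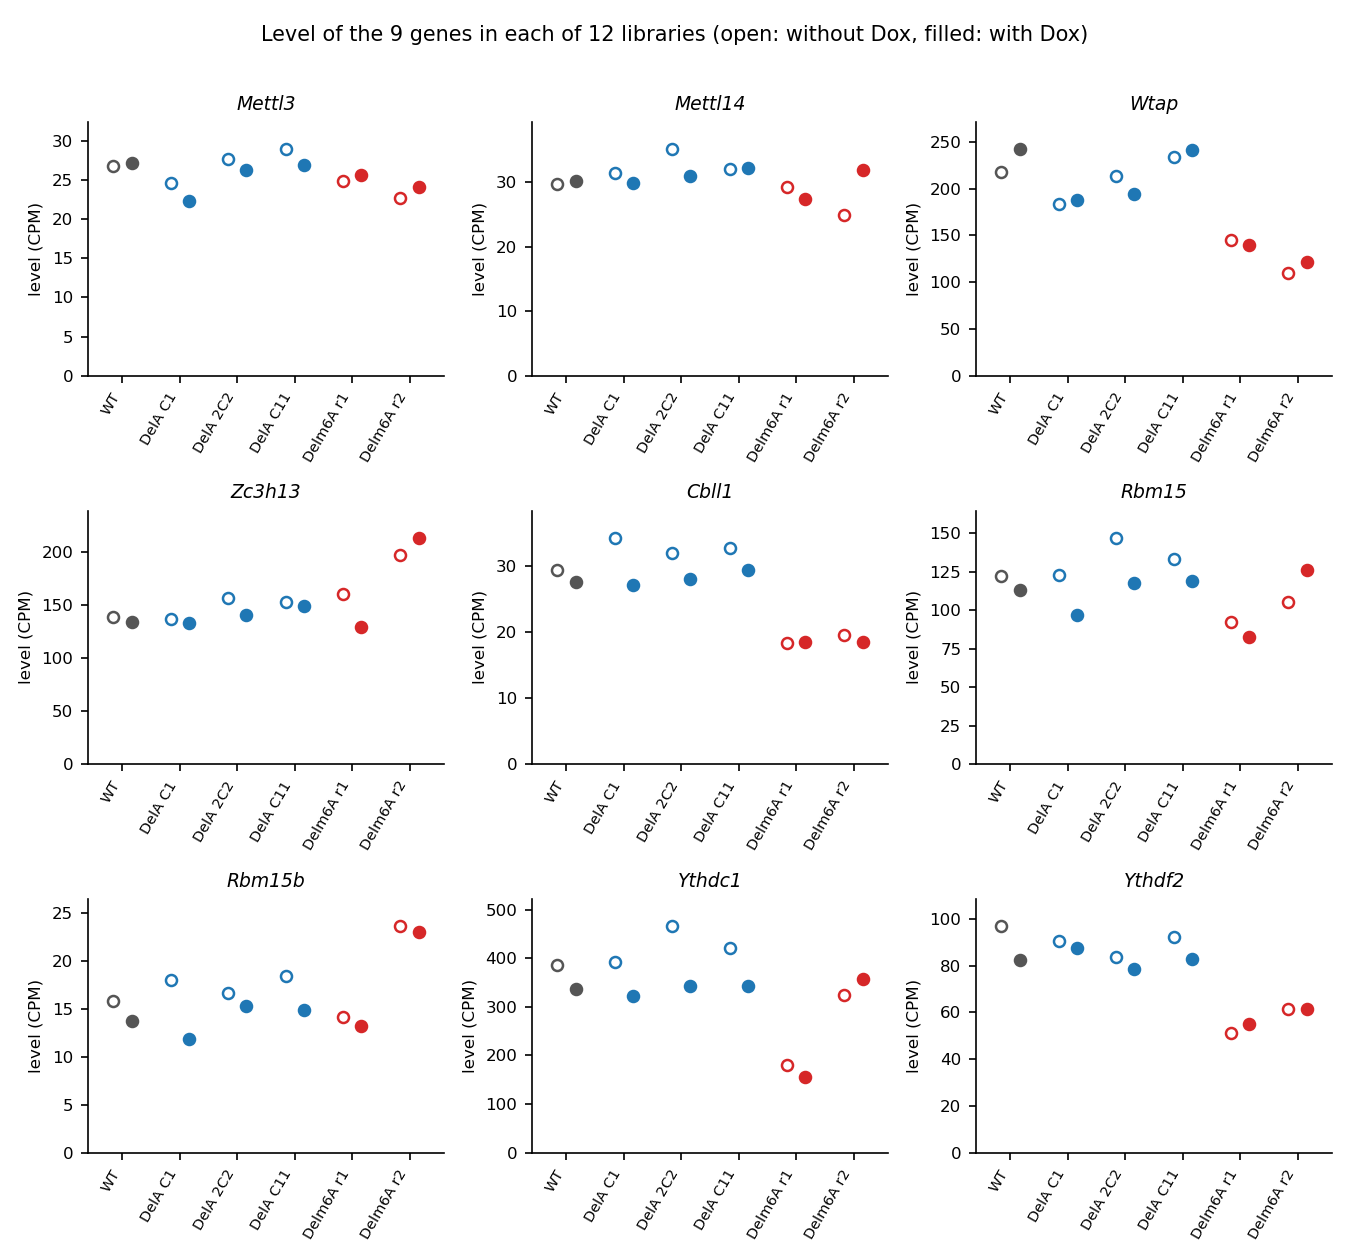
Level in CPM of each of the 9 genes in the 12 libraries (1 point per library, grey WT, blue XistDelA, red XistDelm6A, r1 and r2 are replicates 1 and 2). Cbll1 is between 18.3 and 19.5 CPM in XistDelm6A and between 27.1 and 34.3 CPM in XistDelA, whereas Mettl3 overlaps between the lines.

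Of the writer core, Mettl3, which encodes the methyltransferase itself, varied least of the 9 genes. It was at 26.8 CPM in WT without Dox and 27.2 CPM with Dox. Clones C1, 2C2 and C11 of XistDelA had 24.7, 27.7 and 28.9 CPM without Dox and 22.3, 26.3 and 27.0 CPM with Dox. Replicates 1 and 2 of XistDelm6A had 24.9 and 22.7 CPM of Mettl3 without Dox and 25.6 and 24.2 CPM with Dox. The groups overlapped in both states, and the highest library was 1.3 times the lowest. Mettl14, whose product holds the RNA for METTL3, was between 29.8 and 30.2 CPM in WT and between 29.95 and 35.1 CPM in XistDelA. In XistDelm6A it had 29.4 and 27.3 CPM in replicate 1 and 24.96 and 31.9 CPM in replicate 2, without and with Dox. Both replicates were below the 3 clones without Dox and overlapped with them with Dox, but with total counts in place of TMM the lines overlapped without Dox too (32.2 CPM in replicate 1 and 30.81 CPM in C1).

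Among the regulatory subunits, Wtap, the scaffold that joins the core to the rest of the complex, was at 218 CPM in WT without Dox and 242 CPM with Dox. Clones C1, 2C2 and C11 had 184, 213 and 234 CPM of Wtap without Dox and 188, 194 and 241 CPM with Dox. XistDelm6A replicates 1 and 2 had 145 and 109 CPM without Dox and 140 and 121 CPM with Dox. All 4 XistDelm6A libraries were below all 8 others for Wtap, and the 3 clones kept the same order in both states.

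Cbll1, which encodes the subunit also known as HAKAI, had 29.4 CPM in WT without Dox and 27.6 CPM with Dox. In XistDelA it had 34.3, 32.0 and 32.8 CPM in C1, 2C2 and C11 without Dox and from 27.1 CPM in C1 to 29.4 CPM in C11 with Dox, with 2C2 at 28 CPM. XistDelm6A had 18.3 and 19.5 CPM in replicates 1 and 2 without Dox and 18.5 and 18.6 CPM with Dox. The XistDelm6A libraries lay close together and below every other library, and within XistDelA the 3 Dox libraries lay below the 3 without Dox.

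Rbm15 encodes the RNA-binding subunit that is linked to the A-repeat of Xist, and WT had 122 CPM of it without Dox and 113 CPM with Dox. C1, 2C2 and C11 had 123, 147 and 133 CPM without Dox and 97.0, 118 and 119 CPM with Dox. XistDelm6A had 92.2 and 105 CPM in replicates 1 and 2 without Dox and 82.7 and 126 CPM with Dox. In XistDelA the Dox libraries were all below the libraries without Dox, and the XistDelm6A replicates moved apart with Dox, to both sides of the XistDelA values.

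Its paralogue Rbm15b had 15.8 and 13.7 CPM in WT without and with Dox. It had 18.1, 16.6 and 18.5 CPM in C1, 2C2 and C11 without Dox and 11.8, 15.3 and 14.8 CPM with Dox. XistDelm6A had 14.2 CPM in replicate 1 and 23.6 CPM in replicate 2 without Dox, and 13.2 and 23.0 CPM with Dox. Replicate 2 was thus above every other library for Rbm15b and replicate 1 was not. The replicates also differed for Zc3h13, the subunit that keeps the complex in the nucleus. Zc3h13 was between 133 and 156 CPM in WT and XistDelA, at 160 and 129 CPM in XistDelm6A replicate 1 and at 197 and 213 CPM in replicate 2, without and with Dox.

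Of the readers, Ythdc1, which encodes the YTH protein of the nucleus, had the widest range of the 9 genes, with the highest library at 2.98 times the lowest. WT had 386 CPM of it without Dox and 336 CPM with Dox. C1, 2C2 and C11 had 393, 466 and 421 CPM without Dox and 322, 343 and 342 CPM with Dox. XistDelm6A had 181 CPM in replicate 1 and 325 CPM in replicate 2 without Dox, and 156 and 356 CPM with Dox. The 3 Dox libraries of XistDelA were below the 3 without Dox, and the spread between the XistDelm6A replicates was larger than any difference between the states.

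Ythdf2, whose product binds m6A on cytoplasmic RNA and promotes its decay, had 96.8 CPM in WT without Dox and 82.5 CPM with Dox. It had 90.5, 83.4 and 92.4 CPM in C1, 2C2 and C11 without Dox and 87.7, 78.6 and 82.9 CPM with Dox. XistDelm6A had 51.3 and 61.4 CPM in replicates 1 and 2 without Dox and 55.0 and 61.4 CPM with Dox. As for Wtap and Cbll1, all 4 XistDelm6A libraries were below the other 8. The share of all genes separated in this way was not counted, and these 4 libraries stood apart from the other 8 over all genes. Nor was it counted for how many genes every Dox library of XistDelA lay below every one without Dox.

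The study compares cells with and without Dox within each line, and the same comparison asks here whether the 9 genes changed while Xist was induced. In XistDelA, edgeR without a block called 0 of the 9 genes and 3 of 14866 genes (0.0202%) at an adjusted p under 0.05. At an unadjusted p under 0.05 there were 4 of the 9 and 2162 of all genes, and DESeq2 called 1 of the 9 (Ythdc1) and 421 of all. The median log2 change was -0.10 over the 9 genes and 0.01 over all genes. The log2 change was -0.34 for Ythdc1 (SE 0.08, adjusted p 0.185 by edgeR), -0.34 for Rbm15b (SE 0.13), -0.27 for Rbm15 (SE 0.11) and -0.23 for Cbll1 (SE 0.08).

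Each XistDelA clone gives a library in each state, so the clone can enter as a block, and the calls depend on it. With the clone as a block, edgeR called 4410 of 14866 genes, 2211 of them lower (14.9%), and 4 of the 9 genes, all lower. Ythdc1 had a log2 change of -0.34 (SE 0.05, adjusted p 2.45e-06 by edgeR) and Rbm15 of -0.27 (SE 0.05, adjusted p 0.000199 by edgeR). Rbm15b had a log2 change of -0.35 (SE 0.09, adjusted p 0.00481 by edgeR) and Cbll1 of -0.23 (SE 0.07, adjusted p 0.0140 by edgeR), and all 4 genes were lower in 3 of 3 clones. Over all alternatives to the test without a block, the adjusted p from edgeR or DESeq2 was between 2.45e-06 and 0.913 for Ythdc1, 0.000199 and 0.909 for Rbm15, 0.00481 and 0.909 for Rbm15b, and 0.0140 and 0.909 for Cbll1. The other 5 genes did not pass with the block, from Mettl3 with -0.10 to Wtap with -0.02, and Wtap was above 0 (0.01) when total counts were used for scaling. Without clone C1 the blocked test called 2 of the 9, Rbm15 and Ythdc1, while Cbll1 (-0.18) and Rbm15b (-0.22) did not pass. Without 2C2 or without C11 it called the same 4 genes, and DESeq2 with the block called 3 of them, without Cbll1. In all, 7 of the 9 genes were lower with Dox in each of the 3 clones, as were 27.2% of all genes tested.

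In XistDelm6A, edgeR without a block called 0 of the 9 genes and 0 of 15140 genes (0%) with Dox, where 0 of the 9 and 173 of all genes had an unadjusted p under 0.05 and DESeq2 called 0 of the 9 and 3 of all. Xist itself, with a log2 change of 5.40 (SE 0.41, adjusted p 0.0546 by edgeR), did not pass in this test, so a count of 0 here does not show that the 9 genes were unchanged. The log2 change of the 9 genes was between -0.10 for Rbm15b and 0.09 for Mettl14 with all 4 libraries, but that of Ythdc1 was between -0.70 and 0.49 when a library was left out. The medians of the fit with all 4 were -0.00194 over the 9 genes and -0.00115 over all genes. Within the pairs, replicate 1 was lower with Dox for Rbm15, Ythdc1, Zc3h13, Mettl14 and Wtap and replicate 2 was higher for each of these 5. In the WT pair, Ythdf2, Rbm15b, Ythdc1, Rbm15, Cbll1 and Zc3h13 were lower with Dox, by log2 changes between -0.23 and -0.04, and Wtap was higher by 0.15.

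**Figure D3:**
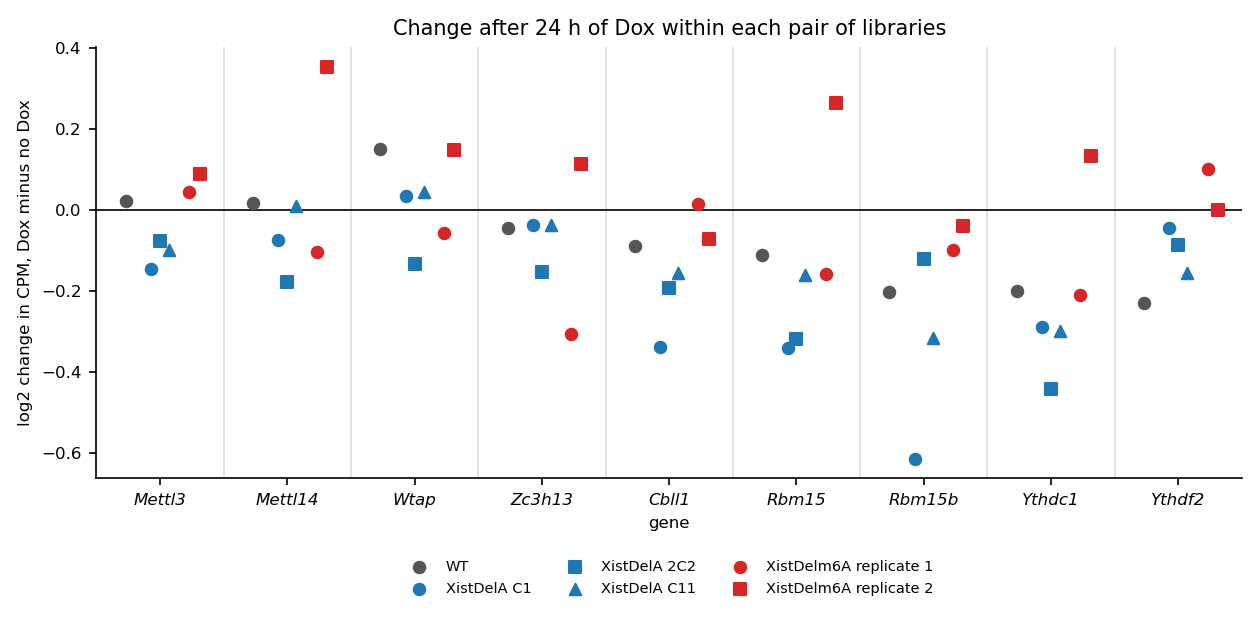
Log2 change in CPM after 24 h of Dox in each of 6 pairs of libraries for the 9 genes (grey WT, blue XistDelA clones, red XistDelm6A replicates). Ythdc1 is lower by between -0.29 and -0.44 in the 3 clones, whereas the XistDelm6A replicates give -0.21 and 0.13.

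Whether the lines responded differently to Dox was tested by the interaction, XistDelm6A minus XistDelA. In edgeR without a block it called 0 of the 9 genes and 0 of 15745 genes (0%), with 0 of the 9 and 233 of all genes at an unadjusted p under 0.05, and DESeq2 called 0 of the 9 and 2 of all. Xist did not pass here either, with a difference of 2.02 (SE 0.34, adjusted p 0.923 by edgeR). For the members the difference of the log2 changes was 0.35 for Ythdc1 (SE 0.45) and 0.33 for Rbm15 (SE 0.27), the members farthest from 0. Both point estimates are below 0 without a single XistDelm6A library, Ythdc1 without replicate 1 without Dox (-0.03) and both genes without replicate 2 with Dox (-0.38 for Ythdc1 and -0.02 for Rbm15). The Dox changes of Ythdc1, Rbm15, Rbm15b and Cbll1 in XistDelA are thus not shown to differ from those in XistDelm6A.

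The 2 deletions were then compared with each other in each state, which asks whether the genes for the m6A machinery differ between a line without the m6A region and clones without the A-repeat. The fit held both states of each clone and replicate and treated these libraries as independent, although the states share clones. Without Dox, edgeR called 3 of the 9 genes and 3125 of 15745 genes (19.8%). All 3 were lower in XistDelm6A, where 1552 of all genes (9.86%) were lower. Cbll1 had a log2 change of -0.78 (SE 0.13, adjusted p 0.00389 by edgeR), Ythdf2 of -0.63 (SE 0.14, adjusted p 0.0107 by edgeR) and Wtap of -0.70 (SE 0.17, adjusted p 0.0193 by edgeR). Ythdc1 with -0.73 (SE 0.33, adjusted p 0.136 by edgeR) and Rbm15 with -0.42 (SE 0.19, adjusted p 0.142 by edgeR) did not pass, nor did Zc3h13 with 0.29 (SE 0.20). The median log2 change was -0.42 over the 9 genes and 0.04 over all genes. With total counts in place of TMM the median of all genes was 0.16, a shift of 0.112, the split of all calls was 1995 higher and 1164 lower in place of 1573 and 1552, and Wtap no longer passed.

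With Dox, edgeR called the same 3 genes lower, where 1366 of 15745 genes (8.68%) were lower. Wtap had a log2 change of -0.67 (SE 0.17, adjusted p 0.0256 by edgeR), Cbll1 of -0.60 (SE 0.13, adjusted p 0.0128 by edgeR) and Ythdf2 of -0.51 (SE 0.13, adjusted p 0.0278 by edgeR). Ythdc1 with -0.38 (SE 0.32) did not pass. The median log2 change with Dox was -0.09 over the 9 genes and 0.03 over all genes. With total counts in place of TMM, Wtap (-0.58) did not pass with Dox either, and the split of all calls was 1450 higher and 1155 lower in place of 1247 and 1366. Between the individual libraries, both XistDelm6A replicates were below all 3 clones for 6 of the 9 genes without Dox (Mettl14, Wtap, Cbll1, Rbm15, Ythdc1 and Ythdf2), as for 27.7% of all genes. Mettl14 leaves this count when total counts are used for scaling. With Dox this held for 3 of the 9 (Wtap, Cbll1 and Ythdf2), as for 22.5% of all genes. Zc3h13 lay the other way without Dox, with both replicates (160 and 197 CPM) above all 3 clones (137 to 156 CPM). With Dox the lines overlapped for Zc3h13.

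These calls rested on few libraries. Where a replicate of XistDelm6A is left out, at least 1 of its states has a single library, which the fit assumes to vary like the libraries of the other groups. Without Dox, Cbll1 passed in all 15 fits that left out a library, a clone or a replicate, with log2 changes between -0.84 and -0.73. Wtap did not pass without 2C2, without C11 or without replicate 2 of XistDelm6A, whether the library without Dox (-0.69, -0.62 and -0.52) or both libraries were left out, and its log2 change was between -0.92 and -0.51. Ythdf2 did not pass without replicate 1 of XistDelm6A without Dox (-0.50) or without both libraries of 2C2 (-0.68) or of C11 (-0.60), and its log2 change was between -0.78 and -0.50. Zc3h13 was called higher (0.43) without both libraries of replicate 1. Ythdc1 and Rbm15 passed without Dox when both libraries of replicate 2 (-1.22 and -0.52) or a single XistDelm6A library with Dox (replicate 1 or 2, -0.42 for Rbm15) were left out. The log2 change of Ythdc1 without Dox was between -1.23 and -0.36 over the 15 fits.

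With Dox, none of Wtap, Cbll1 and Ythdf2 passed without the Dox library of C11 (-0.55, -0.57 and -0.51), without both libraries of C11 (-0.54, -0.56 and -0.50) or without both libraries of 2C2 (-0.72, -0.61 and -0.55). Wtap also did not pass without the Dox library of 2C2 (-0.73) or of XistDelm6A replicate 2 (-0.57). Ythdf2 also did not pass without the Dox library of C1 (-0.48), of 2C2 (-0.56) or of XistDelm6A replicate 1 (-0.44), or without both libraries of C1 (-0.48). Ythdc1 passed without the Dox library of XistDelm6A replicate 2 (-1.10) or both libraries of replicate 2 (-1.125), and its log2 change was 0.09 without that of replicate 1. Zc3h13 was called higher without the Dox library of replicate 1 (0.60) and, together with Rbm15b (0.72), without both libraries of replicate 1 (0.61 for Zc3h13). Without both libraries of 2C2 the number of genes called was 539 without Dox and 523 with Dox, so that fit called fewer genes of any kind.

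**Figure D4:**
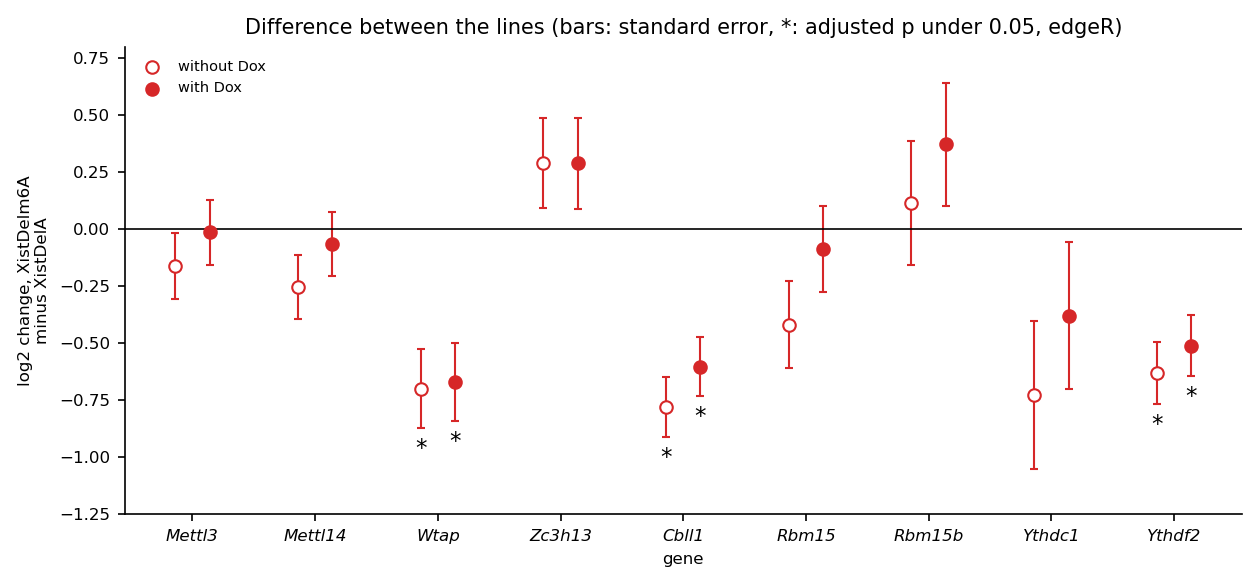
Log2 difference in level, XistDelm6A minus XistDelA, for the 9 genes without Dox (open) and with Dox (filled), from the edgeR fit over 10 libraries (bars show 1 SE). Wtap, Cbll1 and Ythdf2 lie between -0.78 and -0.51 and pass in both states, and the bars of Ythdc1 are the widest.

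Genes around the members were compared in the same way, to see whether a member moved with its chromosome region. Of the genes within 5 Mb, 40 near Cbll1 were tested without Dox, with a median log2 change of 0.03 and 2 lower and 6 higher past the threshold in edgeR. Near Wtap, 63 genes were tested, with a median of 0.00257 and 4 lower and 11 higher. Near Ythdf2, 157 genes had a median of 0.03, with 10 lower and 11 higher. The median gene in the regions of these 3 members was thus near 0 while the members themselves were lower. With Dox the summed level of all genes there overlapped between the lines. Without Dox it was lower in both XistDelm6A libraries than in all 3 clones. It was 3262 and 3894 CPM against 4110 to 4538 CPM near Wtap. The sums were 6595 and 6582 CPM against 7086 to 8063 CPM near Ythdf2, and 2326 and 2407 CPM against 2431 to 2605 CPM near Cbll1. Among the members that were not called, 24 genes near Ythdc1 had a median of -0.44, with 3 lower and 1 higher. Near Rbm15, 89 genes had a median of -0.23, with 16 lower and 3 higher, and near Mettl14, 35 genes had a median of -0.22, with 4 lower and 3 higher. The medians were -0.12 near Mettl3 (12 lower and 9 higher), -0.12 near Zc3h13 (8 lower and 5 higher) and -0.02 near Rbm15b (11 lower and 11 higher).

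Of the other genes of the m6A pathway, the list of 6 regulatory subunits holds 1 gene that is not among the 9, Virma, listed as 1110037F02Rik. It was lower in XistDelm6A with Dox, with a log2 change of -0.47 (SE 0.14, adjusted p 0.0413 by edgeR). Without Dox its log2 change of -0.42 (SE 0.14, adjusted p 0.0560 by edgeR) was close to this and did not pass. With it, 2 of the 6 were lower without Dox and 3 of the 6 with Dox, with medians of -0.42 and -0.28. Of the 2 genes of the writer core, 0 passed in either state in edgeR, with 0 at an unadjusted p under 0.05.

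Of 3 other YTH reader genes, 2 were lower in XistDelm6A without Dox in edgeR, Ythdc2 (-0.63) and Ythdf1 (-0.64), and 1 with Dox, Ythdc2 (-0.56). Of 2 erasers, Fto was higher in both states (0.65 without and 0.53 with Dox). Of 8 other genes for m6A-binding proteins, Hnrnpc (-0.73), Fmr1 (-0.90) and Igf2bp1 (-0.76) were lower without Dox, and with Dox Hnrnpc (-0.58) and Fmr1 (-0.98) were lower and Igf2bp2 was higher (0.68). Of these, Fmr1 lies on the X chromosome. Of 5 other N6-adenine methyltransferase genes, 0 passed in either state in edgeR, with 0 at an unadjusted p under 0.05. Of 10 genes for Xist partners and the SETD1B complex, Wdr82 was lower in both states (-0.98 and -0.63). The medians without Dox were -0.64 for the readers, 0.23 for the erasers, -0.07 for the binding proteins, -0.28 for the methyltransferases and -0.18 for the Xist partners, beside 0.04 for all genes. With Dox they were -0.56, 0.21, -0.02, 0.13 and -0.07 in the same order, beside 0.03 for all genes.

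The marker lists differed between the lines in the same test. Without Dox, 1 of 6 stem cell markers tested was lower (Klf4, -1.34), 2 of 6 fibroblast markers were lower (Col1a2, -1.70, and Col1a1, -1.42), and among 6 differentiation markers 4 were higher (Gata4, 1.56, Gata6, 1.90, T, 1.23, and Sox17, 1.50) and Pax6 was lower (-1.56). With Dox, 3 stem cell markers were lower (Klf4, -1.23, Dppa5a, -1.08, and Nanog, -0.72), the same 2 fibroblast markers were lower, and Gata4 (1.58), Gata6 (1.92) and Sox17 (1.35) were higher and Pax6 lower (-1.69). Wtap, Cbll1 and Ythdf2 differed between the same lines as these markers, which went in both directions. The part of cell state in the difference of the 3 genes was not tested.

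With Dox in XistDelA and the clone as a block, all 3 other YTH reader genes were lower in edgeR, Ythdf1 (-0.23), Ythdf3 (-0.21) and Ythdc2 (-0.18). Fto was higher (0.26), as was 1 of the 5 other methyltransferase genes, Mettl5 (0.31). Of the 8 binding proteins, the X-linked Fmr1 (-0.36), Igf2bp1 (-0.17) and Hnrnpc (-0.13) were lower. Of the 10 Xist partners, 7 were lower, among them Hnrnpk (-0.35), Hnrnpu (-0.20), Wdr82 (-0.18), Setd1b (-0.32) and Ncor1 (-0.14). The medians were -0.21 for the readers, 0.07 for the erasers, 0.07 for the methyltransferases, -0.06 for the binding proteins and -0.16 for the Xist partners, beside -0.10 for the 9 genes and 0.01 for all genes. Of 6 stem cell markers tested, Zfp42 was higher (0.40) and Klf4 (-0.33), Dppa5a (-0.29) and Pou5f1 (-0.17) were lower, 0 of 6 fibroblast markers passed in edgeR (0 at an unadjusted p under 0.05), and T was the 1 of 6 differentiation markers that passed (0.53). Of all genes, 14.9% were lower and 14.8% higher in this test. Without the block, edgeR called 0 genes of each of these lists.

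The parental share of each gene was taken as the 129S part of its allelic counts, with exact Clopper-Pearson 95% intervals. Without Dox, 3 of the 9 genes had more 129S than Castaneus counts past the threshold in edgeR, as did 36.3% of the 13368 genes tested. Wtap had a log2 ratio of 0.58 (SE 0.06, adjusted p 2.78e-05 by edgeR), Mettl14 of 0.44 (SE 0.05, adjusted p 8.9e-05 by edgeR) and Ythdf2 of 0.24 (SE 0.05, adjusted p 0.00342 by edgeR). The median log2 ratio was 0.09 over the 9 genes and 0.12 over all genes tested. In the libraries with Dox, Wtap and Mettl14 passed and Ythdf2 (0.08) did not. Without XistDelm6A replicate 1, Ythdc1 was called as well (0.12), and without replicate 2 Cbll1 was called with fewer 129S counts (-0.18).

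The 129S share of Wtap without Dox was 61.5% in WT, 62.9%, 60.7% and 59.1% in C1, 2C2 and C11, and 56.3% and 58.2% in XistDelm6A replicates 1 and 2. With Dox it was 59.6% in WT, 62.1%, 57.6% and 59.6% in the clones, and 58.2% and 54.6% in XistDelm6A. All 12 intervals for Wtap lay above 50%, and all 12 shares lay above that of the 87 genes within 5 Mb, which was between 50.4% and 53.8%. Mettl14 had shares between 54.1% and 61.6% with a median of 57.8%, and 11 of its 12 intervals lay above 50%. Its 12 shares also lay above that of the 47 genes around it, which was between 52.9% and 54.6%. Ythdf2, which was called as well, was above its neighbours in 9 of 12 libraries, whereas Zc3h13 and Ythdc1 were below theirs in all 12. The 187 genes around Ythdf2 had a share between 52.1% and 54.9% in XistDelm6A and between 50.5% and 51.5% in the other libraries. With Dox in XistDelm6A, Ythdf2 (51.0% and 50.3% in replicates 1 and 2) was below these neighbours (54.1% and 54.9%).

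The share of Mettl3 is given for each library because XistDelm6A did not overlap with the other groups, although the test between the lines did not pass. Without Dox it was 52.5% in WT (95% interval 46.7% to 58.2%) and 54.9%, 54.0% and 52.0% in C1, 2C2 and C11. XistDelm6A had 44.8% (38.6% to 51.1%) in replicate 1 and 43.7% (36.6% to 50.9%) in replicate 2. With Dox it was 49.4% in WT, 49.6%, 50.2% and 48.5% in the clones, and 43.8% and 43.2% in XistDelm6A. All 4 XistDelm6A libraries were below the other 8 for the share of Mettl3, and its share was lower with Dox in each of the 6 pairs. How many of all genes have either pattern was not counted, so both are descriptions of a gene picked for its values. For XistDelm6A against XistDelA without Dox the log2 difference in the ratio was -0.54 (SE 0.14, adjusted p 0.350 by edgeR) and did not pass, where edgeR called 0 of the 9 genes and 2 of 13352 genes (0.015%), with 1 of the 9 and 1402 of all at an unadjusted p under 0.05. The 211 genes within 5 Mb of Mettl3 had a 129S share between 49.4% and 50.6% in all 12 libraries, and in XistDelm6A between 50.4% and 50.6%, so the region did not have the lower share of Mettl3. Between 197 and 475 allelic counts lie behind each share of Mettl3.

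For the other members the shares were between 49.7% and 52.5% for Zc3h13, 49.0% and 54.2% for Ythdc1, 45.8% and 54.5% for Rbm15, 44.0% and 55.4% for Cbll1, and 50.3% and 56.1% for Ythdf2. Rbm15b had shares between 39.4% and 59.0%, with only 56 to 112 allelic counts per library, so that its intervals were the widest of the 9. The 3 genes that were lower in XistDelm6A had counts from both parental genomes in its 4 libraries, with 129S shares between 54.6% and 58.2% for Wtap, 48.9% and 55.4% for Cbll1, and 50.3% and 56.1% for Ythdf2.

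Dox did not give a called change in the share of any of the 9 genes. In XistDelA, edgeR called 0 of the 9 and 0 of 13390 genes (0%), with 0 of the 9 and 515 of all at an unadjusted p under 0.05, and the log2 change in the ratio of Mettl3 was -0.24 (SE 0.11). With the clone as a block it called 0 of the 9 and 140 of all. In XistDelm6A, edgeR called 0 of the 9 and 106 of 13710 genes (0.773%), with 0 of the 9 and 536 of all at an unadjusted p under 0.05. Of these 106 genes, 104 had a lower 129S share with Dox. Among the genes in the lists only Fmr1 passed there, with a log2 change in its ratio of -0.69. Unlike the 9 genes, Fmr1 lies on the X chromosome, where Dox induces Xist from the 129S copy. The allelic tests were run with edgeR alone.

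**Figure D5:**
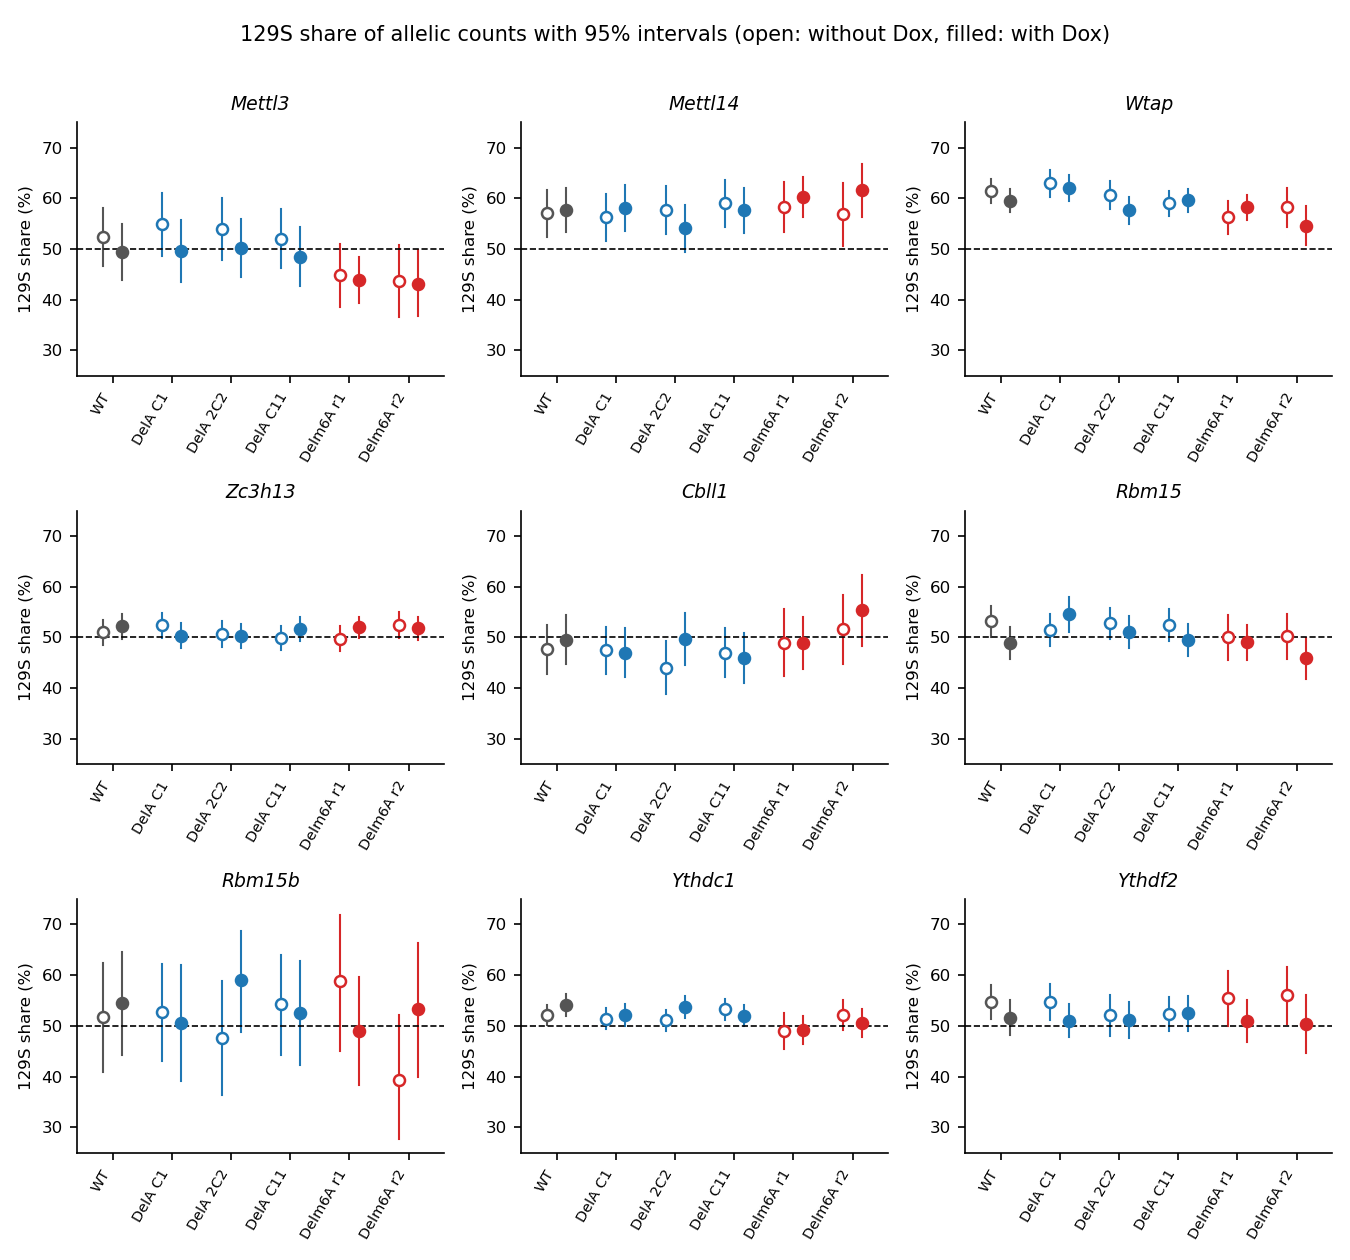
Share of the 129S genome in the allelic counts of each of the 9 genes in 12 libraries, with exact 95% intervals and a dashed line at 50% (grey WT, blue XistDelA, red XistDelm6A). Wtap lies between 54.6% and 62.9% in all libraries, and Mettl3 between 43.2% and 44.8% in XistDelm6A and at 48.5% or more elsewhere.

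Across the 12 libraries some of the 9 genes varied together, which is given as a description because libraries of a clone and of a line are not independent. The Pearson correlation of log2 CPM was 0.942 between Cbll1 and Ythdf2, 0.852 between Wtap and Cbll1 and 0.809 between Wtap and Ythdf2, the 3 genes that were lower in XistDelm6A. It was 0.913 between Rbm15 and Ythdc1 and 0.829 between Zc3h13 and Rbm15b, and it was lowest between Wtap and Zc3h13 with -0.639. Of 16203 genes, those most like Rbm15 were Dimt1 (0.977), Snrpb2 (0.977) and Fxr1 (0.971). The genes most like Mettl3 were Vstm5 (0.943), Uhrf1 (0.925) and Cdk2 (0.923). For Ythdc1 they were Ncapg2 (0.997), Mcm4 (0.995) and Chek1 (0.993), over the same 12 libraries.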

How the data were processed

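Chromatin-associated RNA of 12 libraries was analysed. The counts of read pairs per gene are those the authors deposited, not normalised, made with featureCounts (version 1.5.2, per the file headers) over gene spans, in total and for each parental genome. Of the 2 genome columns, the one that holds almost all Xist counts is called 129S. The 9 genes and the gene lists were chosen with earlier results of these data known. Levels were tested over all genes in edgeR (version 4.0.16, quasi-likelihood) with TMM scaling, filterByExpr with a minimum count of 10, Benjamini-Hochberg adjustment and a threshold of 0.05. Allelic tests had library as a block and kept genes averaging 10 or more such counts. DESeq2 (version 1.42.0) was an alternative. R 4.3.3, Python 3.11.15 and scipy 1.17.1 were used. Clone pairs come from the clone names in the labels, and deviations of paired libraries from their group means had correlations across genes of 0.6 (C1), 0.371 (2C2) and 0.541 (C11). Replicates were checked to differ beyond counting error, and the scripts were tried on simulated counts. Named genes are the 9 members, Xist, up to 5 genes per list and comparison by adjusted p, and the 3 genes most correlated with each of Rbm15, Mettl3 and Ythdc1. Rmrp was added after its values were seen. The lists hold the writer core, regulatory subunits, other methyltransferases, erasers, other YTH readers, other m6A-binding proteins, Xist partners with the SETD1B complex, and stem cell, fibroblast and differentiation markers.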

Additional observations from a re-analysis of the deposited data

Results flagged for a closer look

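For Mettl3 and Ythdf2 the changes with Dox went in opposite directions in the 2 lines. Mettl3 was lower with Dox in all 3 XistDelA clones (log2 changes in CPM of -0.15, -0.08 and -0.10 in C1, 2C2 and C11) and higher in both XistDelm6A replicates (0.04 and 0.09). Ythdf2 was lower in all 3 clones (-0.05, -0.09 and -0.16) and higher in XistDelm6A replicate 1 (0.10), with 0.000668 in replicate 2, which is close to 0. These genes are listed because of the directions alone. The difference itself was tested by the interaction in edgeR, which gave 0.1496 for Mettl3 (SE 0.20) and 0.121 for Ythdf2 (SE 0.19) on the log2 scale, neither past the threshold. Without replicate 1 of XistDelm6A without Dox the difference for Ythdf2 was -0.03. With scaling by total counts replicate 2 was lower with Dox for both genes (-0.01 for Mettl3 and -0.10 for Ythdf2), so that the opposite directions depend on the scaling.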

How the results depend on the processing

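Values under other settings are given by comparison, first those of other tools, scaling, filters and blocks and then the lowest and highest value when a library, clone or replicate is left out. Some alternatives were added after the data had been seen. The cause was not tested in any case.

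Dox effect in XistDelA: DESeq2 called 1 of the 9 genes and 421 of all, and the clone as a block gave 4 and 4410. Leaving libraries out gave 0 of the 9 and between 0 and 3 of all genes.

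With the clone as a block, DESeq2 called 2642 genes. Leaving a clone out gave between 2 and 4 of the 9 and between 2152 and 4996 of all. The log2 change of Wtap was 0.0113 with total counts and between -0.0539 and 0.0413 without a clone, so its sign was reversed in some fits.

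Dox effect in XistDelm6A: the number of all genes called was 3 with DESeq2, 1 with total counts, 2 without a count filter, 237 (34 higher and 203 lower, 0 of the 9) with replicate number as a block and 2 with all 12 libraries in one fit. Leaving a library out gave between 4 and 14. The log2 change was then between -0.000924 and 0.22 for Mettl14 between -0.52 and 0.34 for Rbm15b, between -0.70 and 0.49 for Ythdc1, between -0.47 and 0.21 for Zc3h13 and between -0.27 and 0.32 for Rbm15, with reversed signs. The replicates of this line share only a number, and the deviations of same-numbered libraries had a correlation of 0.694.

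XistDelm6A against XistDelA: leaving libraries out gave between 1 and 5 of the 9 and between 539 and 4510 of all genes without Dox. With Dox it gave between 0 and 5 of the 9 and between 523 and 4452 of all, and the log2 change of Ythdc1 was between -1.125 and 0.10, with a reversed sign in 2 fits.

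Difference of the Dox effects: DESeq2 called 2 genes and the block 117, and leaving libraries out gave between 0 and 1. The difference was then between -0.38 and 0.85 for Ythdc1, between -0.0157 and 0.61 for Rbm15 and between -0.0253 and 0.27 for Ythdf2, with reversed signs.

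Parental counts: for the Dox effect on the share, the clone as a block gave 140 genes in XistDelA and the replicate number gave 200 in XistDelm6A. Leaving a library out gave between 0 and 1 gene in XistDelA, between 33 and 59 in XistDelm6A and between 0 and 591 for the line. For 129S against Castaneus it gave between 3 and 4 of the 9 and between 6993 and 7435 of all.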
